A study of Homo sapiens with 9 samples.

Results

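The 32 genes described here encode the enzymes of cholesterol synthesis, the proteins that sense and move sterols, and the enzymes of fatty acid synthesis. They were chosen by symbol as a list of pathway members, and all 32 were found among the 18143 genes listed in each library of A549 cells, a human lung adenocarcinoma line that is a single established line. The cells were harvested 48 h after transfection with scramble siRNA (Scramble), SiREV1#1 or SiREV1#2, with 3 replicates in each group and 9 libraries in all. No other treatment is named for any group in the sources used here. Both siRNAs target REV1, the Y-family polymerase that organises translesion DNA synthesis, and the knockdown is transient and leaves part of the REV1 mRNA. The comparisons asked how these lipid genes stood after each siRNA within libraries of the same replicate number, and how replicate 1 differed from replicates 2 and 3. The study's methods state that in vitro experiments were repeated independently, but what the replicate numbers of these libraries stand for is not given in the sources used here. With the replicate number in the fit, p-values measure the spread left between libraries after group and number, which may be technical. For replicate 1 they take libraries of the same number as separate, and do not measure the spread between numbers.

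Cells make cholesterol from acetyl-CoA through the mevalonate pathway, which builds isoprenoid units, joins them into squalene and closes squalene into the first sterol. Fatty acids are made from the same acetyl-CoA by a second route that is followed by desaturation and elongation. Both routes are switched on together by the SREBP transcription factors, encoded by SREBF1 and SREBF2. When membrane sterol is low, SCAP carries the SREBP precursors to the Golgi, where the protease encoded by MBTPS1 makes the first cut, and when sterol is high the INSIG1 protein holds SCAP back in the endoplasmic reticulum.

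Counts of the SiREV1#2 replicate 3 library repeat those of replicate 2 and were used once, so tests on counts held 8 libraries (2 of SiREV1#2) and FPKM values held all 9. The FPKM values of these replicates were equal at 10.4% of genes only. Which of the columns is in error is not known, so SiREV1#2 results on FPKM take replicate 3 as a separate library without a check. FPKM scales fragments by transcript length and library size, so levels can be compared between genes. Total counts per library were between 13059082 and 20166451, and the lowest was that of SiREV1#1 replicate 1. REV1 itself checks the labels. Its FPKM was 7.23, 7.90 and 8.44 in Scramble replicates 1, 2 and 3, then 2.60, 2.92 and 3.36 after SiREV1#1 and 3.62, 3.36 and 3.18 after SiREV1#2, with no overlap between Scramble and either siRNA. Its fitted log2 fold change was -1.26 for SiREV1#1 (SE 0.13, adjusted p = 0.0016) and -1.26 for SiREV1#2 (SE 0.15, adjusted p = 0.0099), by edgeR's quasi-likelihood test with Benjamini-Hochberg adjustment over all 14205 genes tested and with the replicate number as a block. Keratins of simple epithelium were abundant (KRT18 between 2491 and 5216 FPKM, KRT8 between 1372 and 5602), CDH1 was between 6.32 and 43.8 FPKM, and EPCAM (0.73 to 2.38) and KRT19 (0.10 to 1.34) were low. The leukocyte gene PTPRC did not exceed 0.47 FPKM, the endothelial gene PECAM1 0.12 and the fibroblast gene DCN 0.04, while CD68, a lysosomal protein gene used as a macrophage marker, was between 18.3 and 81.6, and CD14, a monocyte receptor gene, between 0.13 and 5.89. These are bulk measurements, in which a change in the share of some cells and a change in RNA per cell cannot be told apart.

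Words that SREBPs and their partners are known to bind were searched for on both strands of the RefSeq promoter windows of GRCh38.p14, from 250 bases before to 50 bases after each start. A window was given for 28 of the 32 genes, and not for FDFT1, SQLE, ACAT2 and FASN. The sterol regulatory element form TCACNCCAC was found in 1 of 28 windows (3.57%), that of SREBF2, and in 168 of the 14177 windows of all listed genes (1.19%). CCAAT, the box bound by NF-Y, was found in 18 of 28 (64.3%) against 36.3% of all windows, and the E-box CACGTG in 4 of 28 (14.3%) against 9.25%. Different words did not overlap in the windows of these genes. The E-box genes were INSIG1, LSS, SC5D and SCAP, and their E-box runs are not shown. The sequences below hold 1 CCAAT match per gene, the nearest before the start, and for SREBF2 also the sterol regulatory element form. They are given for SREBF2, whose FPKM separated all groups, and for HMGCS1, MVD and SCD, whose siRNA differences depended on the replicate. MSMO1, INSIG1 and LSS are included because they were among the genes raised most in replicate 1. Capitals mark the word, and each run is read 5′ to 3′ on the strand that holds the word.
SREBF2, TCACNCCAC, chr22:41832962-41832990, plus strand: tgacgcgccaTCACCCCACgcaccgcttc
SREBF2, CCAAT, chr22:41832989-41833013, minus strand: ctcatctcagCCAATgggcgagcga
HMGCS1, CCAAT, chr5:43313498-43313522, plus strand: gctcccacagCCAATcgcggccggt
MVD, CCAAT, chr16:88663162-88663186, minus strand: ctcgcacgggCCAATcctgtggtag
SCD, CCAAT, chr10:100347037-100347061, plus strand: ttcccttcggCCAATgacgagccgg
MSMO1, CCAAT, chr4:165327625-165327649, plus strand: ctctcgcaggCCAATaacgacagga
INSIG1, CCAAT, chr7:155297698-155297722, minus strand: gcggccgcaaCCAATgggaggccgg
LSS, CCAAT, chr21:46228910-46228934, plus strand: gcccacgcaaCCAATcagagcgccg
The word of SREBF2 that has the sterol regulatory element form begins 133 bases before the start and its CCAAT box 106 bases before it. MSMO1 holds 4 CCAAT words in its window, MVD holds 3, and HMGCS1 and SCD hold 2 each. A match is a description of these letters and not evidence of binding.

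In Scramble, SCD, the desaturase that makes oleate, had the highest mean level of the 32 genes, at 277 ± 159 FPKM (SD, n = 3). FADS2 (142 ± 77.6), which desaturates polyunsaturated fatty acids, ACLY (130 ± 48.0), which makes cytosolic acetyl-CoA from citrate, and FDPS (110 ± 9.94), the farnesyl diphosphate synthase, came next. SCD was above each of them in 3 of 3 replicates, while the order of FADS2, ACLY and FDPS differed between replicates. The lowest means were those of SC5D, a late sterol desaturase, at 6.20 ± 1.56 FPKM (SD, n = 3), and STARD4, a sterol carrier, at 8.06 ± 0.88 (SD, n = 3), and STARD4 was above SC5D in 3 of 3 replicates. The wide SD of SCD came from replicate 1, at 460.4 FPKM against 181.8 and 189.9 in replicates 2 and 3. The heat map of all 32 genes shows the same split in each group for most of them.

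**Figure D1:**
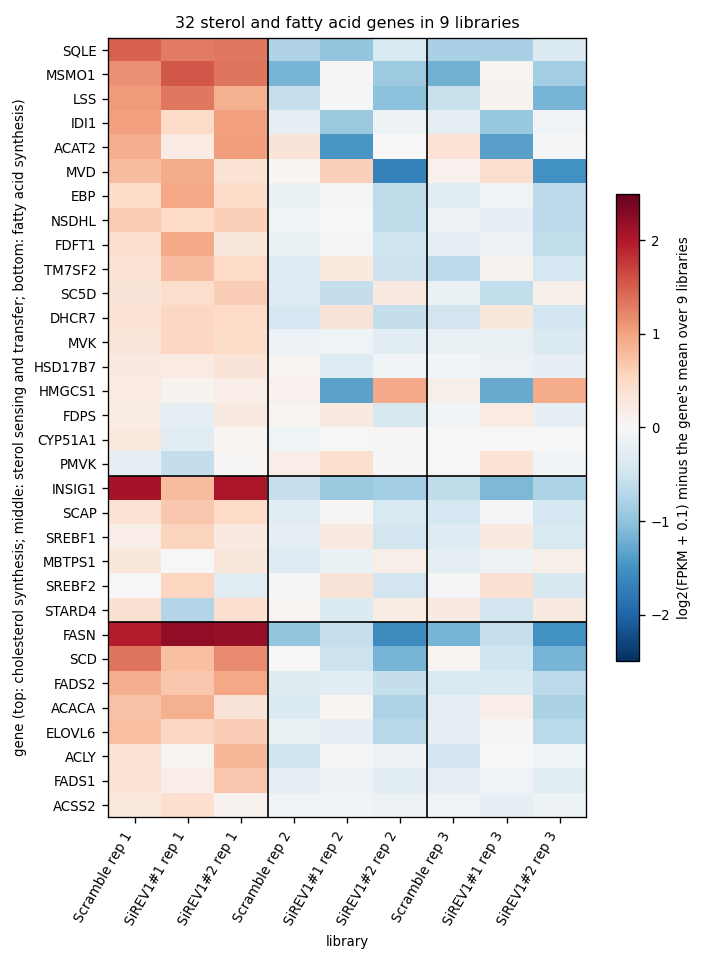
Each row is a gene and each column a library, ordered by replicate number, and the colour is log2(FPKM + 0.1) minus that gene's mean over the 9 libraries. The 3 replicate 1 columns at the left are higher for most genes, with FASN and INSIG1 the darkest rows, and within replicates 2 and 3 the columns of the same siRNA look alike.

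Replicate 1 was compared first because the first principal component, with 67.2% of the variance, separated it from the other libraries. In the fit with the block, 26 of the 32 genes passed in replicate 1 against the mean of replicates 2 and 3, all 26 of them higher, where 56.8% of all genes tested passed, 28.5% higher and 28.3% lower. The median log2 difference was 0.83 over the 32 genes and 0.02 over all genes. By role, 14 of 18 cholesterol synthesis genes (median 0.87), 4 of 6 sterol sensing and transfer genes (median 0.44) and 8 of 8 fatty acid synthesis genes (median 1.15) were higher and 0 were lower. In FPKM, all 3 replicate 1 libraries lay above all 6 other libraries for 22 of the 32 genes and for 18.8% of all genes tested, and replicate 1 was the higher in each group for 27 of 32 genes and 31.7% of all genes. Replicates 2 and 3 of a group were close, with log2 ratios between -0.23 and 0.33 over the 32 genes and the 3 groups. Of the 3 leukocyte markers listed, PTPRC stayed at or below 0.47 FPKM in every library, while CD14 was between 5.04 and 5.89 in replicate 1 and between 0.13 and 0.43 in the others, and CD68 was between 39.5 and 81.6 against 18.3 and 24.3. Their sum was between 45.4 and 88.0 FPKM in replicate 1 and between 18.7 and 24.5 in the others, and 2 of the 3 did not overlap. Of 6 epithelial markers 3 did not overlap, with KRT8 and KRT19 higher and KRT7 lower in replicate 1, while the sums of 3 endothelial (0.08 to 0.14) and 4 fibroblast markers (0.26 to 1.65) overlapped. The part of these in the lipid gene difference was not tested.

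**Figure D2:**
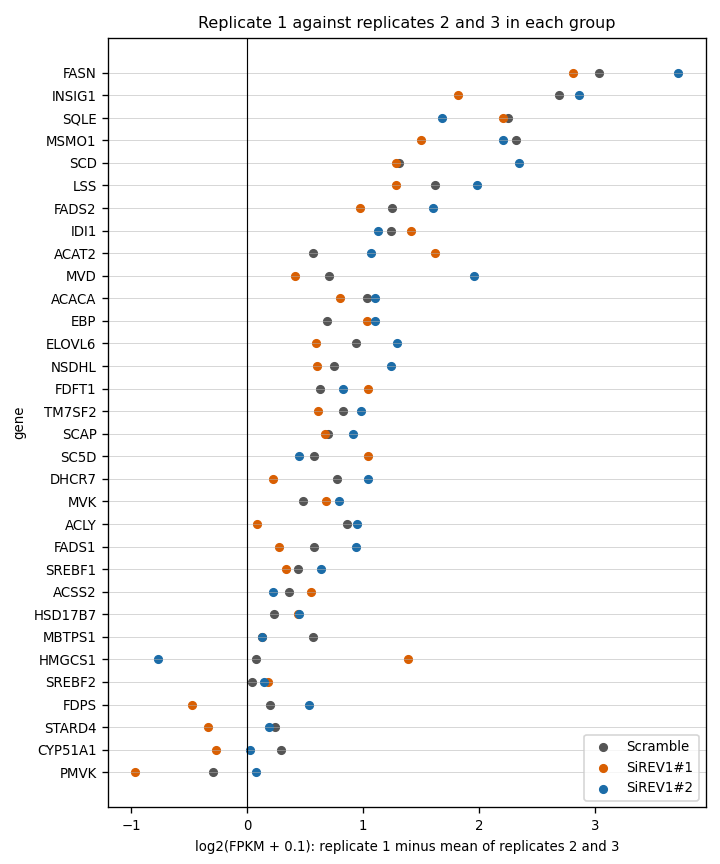
The horizontal axis is the log2(FPKM + 0.1) of replicate 1 minus the mean of replicates 2 and 3, and each row is a gene with 1 point per group. Most points lie to the right of 0, FASN reaches 3.72 in SiREV1#2, and HMGCS1 lies on both sides of 0, at 1.39 in SiREV1#1 and -0.77 in SiREV1#2.

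FASN, the synthase that makes palmitate (NCBI Gene 2194, chr17:82078338-82098236 in GRCh38.p14), had the largest difference. Its FPKM was 89.0 in Scramble replicate 1 and 11.6 and 10.1 in replicates 2 and 3, and 105.9 against 15.0 and 15.1 after SiREV1#1. After SiREV1#2 it was 102.2 against 7.56 and 7.82. Every replicate 1 library was thus far above every other library, and the fitted log2 difference was 3.22 (SE 0.18, adjusted p = 1.2e-05, edgeR), or 9.30-fold. Among the other fatty acid genes, SCD was 3.08-fold higher (log2 1.62, SE 0.19, adjusted p = 0.00027, edgeR) and FADS2 2.46-fold higher (log2 1.30, SE 0.13, adjusted p = 0.00014, edgeR). The elongase gene ELOVL6 was 2.42-fold higher (log2 1.28, SE 0.12, adjusted p = 0.00012, edgeR), and ACACA, the acetyl-CoA carboxylase that makes malonyl-CoA, 2.03-fold (log2 1.02, SE 0.11, adjusted p = 0.00015, edgeR). The remaining fatty acid genes, ACLY, FADS1 (a second polyunsaturated desaturase) and ACSS2 (which makes acetyl-CoA from acetate), were between 1.40- and 1.59-fold higher.

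Among the cholesterol genes, SQLE, which oxidises squalene, had FPKM of 75.6 in Scramble replicate 1 and 16.2 and 15.4 in replicates 2 and 3. After SiREV1#1 it was 67.0 against 13.6 and 15.4, and after SiREV1#2 67.7 against 20.8 and 21.4. The groups did not overlap by replicate number, and the log2 difference was 2.17 (SE 0.14, adjusted p = 2.3e-05, edgeR). MSMO1, which removes methyl groups from early sterols, was 4.20-fold higher (log2 2.07, SE 0.15, adjusted p = 3.4e-05, edgeR). LSS, which closes the sterol rings, was 3.07-fold higher (log2 1.62, SE 0.12, adjusted p = 4.1e-05, edgeR), and IDI1, which isomerises isopentenyl diphosphate, 2.46-fold (log2 1.30, SE 0.11, adjusted p = 7.1e-05, edgeR). The other cholesterol genes that passed ran from HSD17B7, a sterol ketone reductase, at 1.32-fold to ACAT2, here the cytosolic acetoacetyl-CoA thiolase, at 2.23-fold. Of the genes of this route that did not pass, HMGCS1, the HMG-CoA synthase, had a log2 difference of 0.53, FDPS 0.14, CYP51A1 (lanosterol demethylase) 0.07 and PMVK (phosphomevalonate kinase) -0.36.

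INSIG1, the sterol-dependent anchor of SCAP and itself an SREBP target, had FPKM of 33.5 in Scramble replicate 1 against 5.22 and 5.03 in replicates 2 and 3. The values were 13.7 against 4.07 and 3.57 after SiREV1#1 and 32.4 against 4.22 and 4.54 after SiREV1#2. All replicate 1 values were above the rest, by a fitted 5.82-fold (log2 2.54, SE 0.19, adjusted p = 3.7e-05, edgeR). SCAP (1.76-fold), SREBF1 (1.43-fold) and MBTPS1 (1.28-fold) also rose, while SREBF2 (log2 0.27, adjusted p = 0.078, edgeR) and STARD4 (log2 0.11, adjusted p = 0.46, edgeR) did not pass. The SREBF2 mRNA thus had replicate 1 values of 37.7, 54.1 and 30.6 FPKM in Scramble, SiREV1#1 and SiREV1#2, next to replicate 2 values of 36.3, 47.0 and 27.0.

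**Figure D3:**
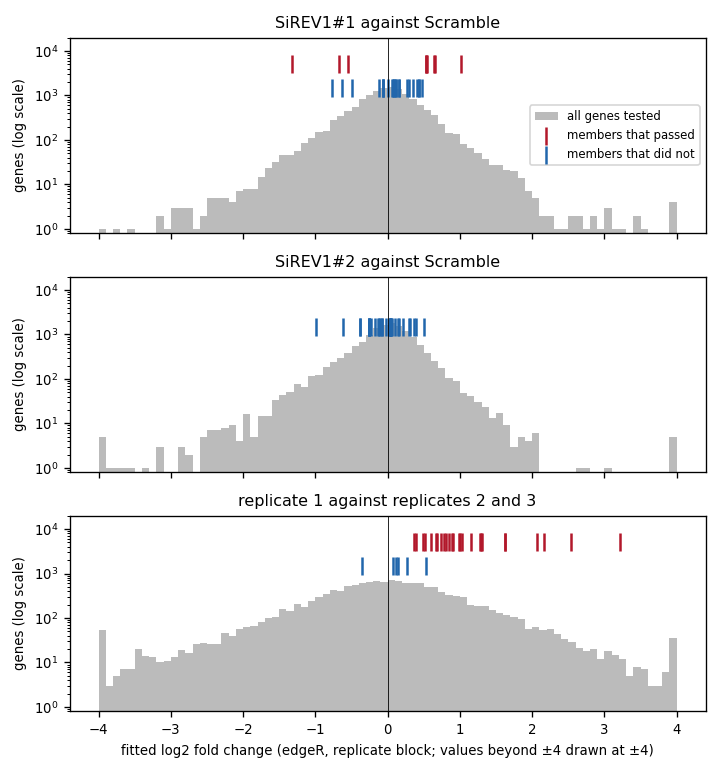
Grey bars count all 14205 genes by fitted log2 fold change on a log axis, and ticks mark the 32 genes, red where the adjusted p was under 0.05 and blue where it was not. The red ticks lie on both sides of 0 for SiREV1#1, there are none for SiREV1#2, and for replicate 1 all 26 lie to the right of 0.

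After SiREV1#1, 9 of the 32 genes passed against Scramble, 6 higher and 3 lower, where 12.3% of all genes tested passed, 5.32% higher and 6.96% lower. The genes did not move one way: the median log2 fold change was 0.11 over the 32 genes and 0.00 over all genes. By role, 4 cholesterol synthesis genes were higher and 2 lower of 18 (median 0.12), 2 sterol sensing and transfer genes were higher and 1 lower of 6 (median 0.26), and 0 of 8 fatty acid synthesis genes passed (median 0.11, 3 at an unadjusted p under 0.05). By FPKM within same-numbered pairs, 13 genes were higher in 3 of 3 pairs (19% of all genes were) and 8 were lower in 3 of 3 (32.6% of all genes). The FPKM ratio of SiREV1#1 to Scramble in replicate 1 had a median of -0.20 on the log2 scale over all genes, so single values of that pair are read against that shift. Only HMGCS1, SREBF1, SREBF2, STARD4 and ACAT2 had FPKM that did not overlap between the 2 groups, 5 of 32 where 18.5% of all genes did not.

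The calls for SiREV1#1 depend on a replicate term in the fit. With 1 term for replicate 1 in place of the block, 12 of 32 passed by edgeR, a fit for which no share over all genes was counted. Without any such term, 0 of the 32 genes passed (2 at an unadjusted p under 0.05, edgeR), where 0.296% of all genes did. By limma on FPKM without the block 0 passed (4 unadjusted). With replicates 2 and 3 only, limma on log2(FPKM + 1) called 22 of 32, where it called 46.7% of all genes.

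**Figure D4:**
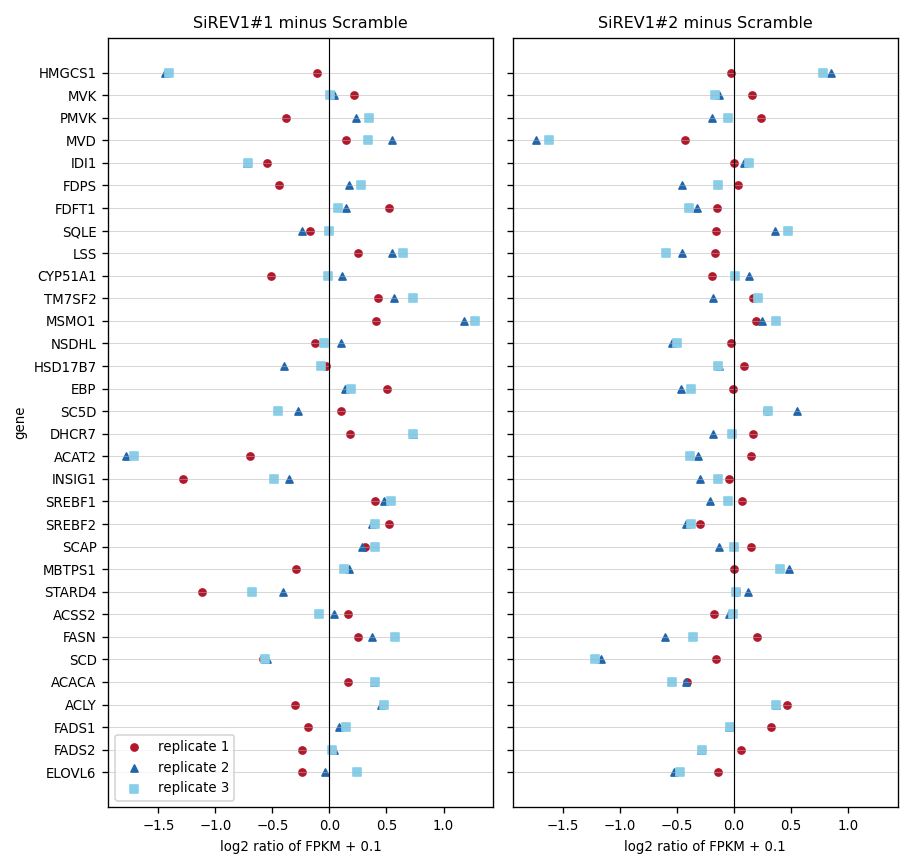
Each row is a gene, and points give the log2 ratio of FPKM + 0.1 to Scramble in replicate 1 (red circles), 2 (dark blue triangles) and 3 (light blue squares), with SiREV1#1 at the left and SiREV1#2 at the right. Replicates 2 and 3 fall together, and replicate 1 lies apart from them for several genes. Among these are HMGCS1, ACAT2, MSMO1, INSIG1 and ACLY at the left and HMGCS1, MVD, SCD and FASN at the right.

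Among the cholesterol genes, MSMO1 (NCBI Gene 6307, chr4:165327669-165343164) had FPKM of 57.2, 11.6 and 11.2 in Scramble replicates 1, 2 and 3 and of 75.8, 26.4 and 27.3 after SiREV1#1. Each SiREV1#1 library was above its same-numbered partner, by 1.33-, 2.27- and 2.43-fold, and the groups overlapped because of replicate 1. The fitted log2 fold change was 1.02 (SE 0.17, adjusted p = 0.009, edgeR). ACAT2 moved the other way, from 34.0, 22.6 and 23.1 FPKM in Scramble to 20.9, 6.50 and 6.98 after SiREV1#1. All SiREV1#1 values were below all Scramble values, and ACAT2 fell by 1.32 on the log2 scale (SE 0.25, adjusted p = 0.014, edgeR), or 2.49-fold. IDI1 had 75.0, 31.9 and 31.4 FPKM in Scramble and 51.2, 19.3 and 19.1 after SiREV1#1. It was lower in 3 of 3 pairs, with a log2 fold change of -0.55 (SE 0.13, adjusted p = 0.029, edgeR).

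The other cholesterol genes that rose were TM7SF2, DHCR7 and LSS. TM7SF2, a sterol reductase, had FPKM of 14.2, 8.94 and 7.11 in Scramble and of 19.1, 13.3 and 11.9 after SiREV1#1, with a log2 fold change of 0.65 (SE 0.14, adjusted p = 0.024, edgeR). DHCR7, the reductase of the last step to cholesterol, had 81.8, 48.2 and 47.1 FPKM in Scramble and 92.5, 80.2 and 78.3 after SiREV1#1, with a log2 fold change of 0.64 (SE 0.17, adjusted p = 0.044, edgeR). Both were higher in 3 of 3 pairs while their groups overlapped. LSS had 19.4, 6.23 and 6.24 FPKM in Scramble and 23.1, 9.14 and 9.80 after SiREV1#1, again higher in 3 of 3 pairs, with a log2 fold change of 0.53 (SE 0.14, adjusted p = 0.044, edgeR). LSS and DHCR7 passed in 5 and 6 of 11 other settings and the other 7 genes in 9 of 11, but in 8 fits that each left out 1 library every one of the 9 genes passed in only 3 to 5. Among the cholesterol genes that act on sterols, CYP51A1, NSDHL, HSD17B7, SC5D and EBP did not pass, with log2 fold changes between -0.12 and 0.35.

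Among the sterol sensing and transfer genes, SREBF2 (NCBI Gene 6721, chr22:41833105-41907305), the activator gene whose promoter word is shown above, had FPKM of 37.7, 36.3 and 36.9 in Scramble. It was 54.1, 47.0 and 48.6 after SiREV1#1, above every Scramble library, with a log2 fold change of 0.53 (SE 0.13, adjusted p = 0.034, edgeR). SREBF1 had 58.2, 44.0 and 41.7 FPKM in Scramble and 76.9, 61.4 and 60.7 after SiREV1#1, also without overlap, and a log2 fold change of 0.54 (SE 0.13, adjusted p = 0.034, edgeR). STARD4 fell from 8.97, 7.22 and 7.98 FPKM in Scramble to 4.09, 5.41 and 4.96 after SiREV1#1. Its groups did not overlap, and the log2 fold change was -0.67 (SE 0.13, adjusted p = 0.019, edgeR). SCAP (log2 0.44, adjusted p = 0.051, edgeR) and INSIG1 (log2 -0.63, adjusted p = 0.09, edgeR) did not pass.

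After SiREV1#2, 0 of the 32 genes passed against Scramble by edgeR, where 1.91% of all genes tested did, and 5 had an unadjusted p under 0.05. DESeq2 with the same block called 1 (MVD, lower) and limma on FPKM with the block called 3 (MVD, SREBF2 and ACACA, lower). No share over all genes was counted for either fit, so these calls are not read against one. The median log2 fold change was -0.01 over the 32 genes and 0.01 over all genes. Without the block 0 of 32 passed by edgeR, 0 of them at an unadjusted p under 0.05, and 0% of all genes did. With replicates 2 and 3 only, limma called 19 of 32, 6 higher and 13 lower, where it called 45.4% of all genes. By FPKM, 11 genes were lower in 3 of 3 pairs (28.7% of all genes) and 4 were higher (23.3% of all genes), and SREBF2 alone did not overlap with Scramble, 1 of 32 where 15.1% of all genes did not.

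The 5 genes with the smallest p for SiREV1#2 spanned all roles. MVD, which decarboxylates mevalonate diphosphate (NCBI Gene 4597, chr16:88651940-88663091), had FPKM of 29.4, 17.7 and 18.4 in Scramble and of 21.8, 5.23 and 5.91 after SiREV1#2. Its log2 fold change was -0.99 (SE 0.33, adjusted p = 0.17, edgeR), and the difference was much larger in replicates 2 and 3 than in replicate 1. SREBF2 had 30.6, 27.0 and 28.3 FPKM after SiREV1#2, below every Scramble library, and a log2 fold change of -0.39 (SE 0.15, adjusted p = 0.23, edgeR). ACACA had a log2 fold change of -0.38 (SE 0.14, adjusted p = 0.20, edgeR), with FPKM of 18.1, 8.50 and 9.12 in Scramble and 13.6, 6.30 and 6.22 after SiREV1#2. SCD had FPKM of 460.4, 181.8 and 189.9 in Scramble and 411.5, 81.0 and 81.4 after SiREV1#2, with a log2 fold change of -0.62 (SE 0.25, adjusted p = 0.24, edgeR). ACLY was the one of the 5 with a positive value, at 0.50 (SE 0.20, adjusted p = 0.24, edgeR), and its FPKM was higher in 3 of 3 pairs.

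The siRNAs were also set against each other directly, a comparison in which the Scramble libraries enter only through the block and the shared spread. Of the 32 genes, 10 passed, 7 higher and 3 lower after SiREV1#1 than after SiREV1#2, where 17.6% of all genes tested passed, 8.75% higher and 8.87% lower. The median log2 difference was 0.16 over the 32 genes and 0.00 over all genes. Without the block 0 of 32 passed (2 at an unadjusted p under 0.05, edgeR; 1 by limma on FPKM), where 0.676% of all genes did. REV1 had a log2 difference of 0.00 (SE 0.15, adjusted p = 1, edgeR).

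MVD had the largest of these differences, 2.69-fold higher after SiREV1#1 (log2 1.43, SE 0.33, adjusted p = 0.024, edgeR), at 32.6, 25.8 and 23.3 FPKM against 21.8, 5.23 and 5.91. The values did not overlap. SREBF2 was 1.88-fold higher (log2 0.91, SE 0.15, adjusted p = 0.0076, edgeR). In FPKM, all SiREV1#1 libraries lay above Scramble and all SiREV1#2 libraries below it. The share of all genes that separate this way was not counted, and the fall of SREBF2 after SiREV1#2 did not pass against Scramble (adjusted p = 0.23, edgeR). LSS (log2 0.79, SE 0.16, adjusted p = 0.016, edgeR) and ACACA (log2 0.78, SE 0.14, adjusted p = 0.0098, edgeR) were also higher after SiREV1#1. ACACA was the one fatty acid synthesis gene of 8 that passed. MSMO1 (log2 0.71, SE 0.20, adjusted p = 0.042, edgeR), TM7SF2 (log2 0.61, SE 0.17, adjusted p = 0.042, edgeR) and SREBF1 (log2 0.57, SE 0.15, adjusted p = 0.041, edgeR) complete the 7.

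The 3 genes lower after SiREV1#1 than after SiREV1#2 were ACAT2 (log2 -1.14, SE 0.28, adjusted p = 0.029, edgeR), STARD4 (log2 -0.82, SE 0.16, adjusted p = 0.012, edgeR) and IDI1 (log2 -0.59, SE 0.15, adjusted p = 0.031, edgeR). STARD4 was at 9.08, 7.84 and 8.06 FPKM after SiREV1#2, against 4.09, 5.41 and 4.96 after SiREV1#1. HMGCS1 had a log2 difference of -1.13 with a wide error (SE 0.51, adjusted p = 0.16, edgeR) and did not pass.

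**Figure D5:**
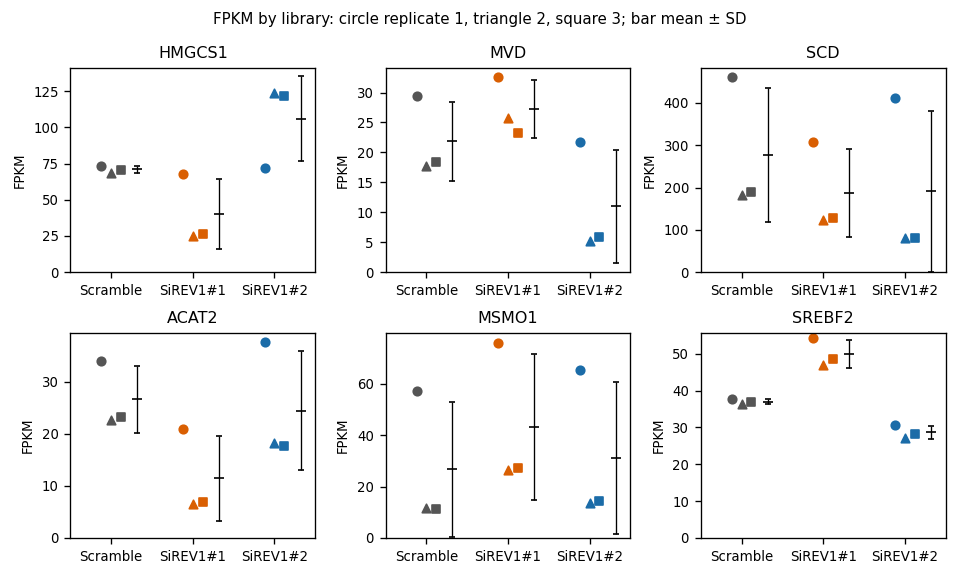
FPKM of 6 genes by group on linear axes from 0, with replicate 1 as a circle, 2 as a triangle and 3 as a square, and the mean ± SD of the 3 libraries beside them. SREBF2 separates the 3 groups in every replicate, HMGCS1 separates them in replicates 2 and 3 only, and SCD and MSMO1 are set mainly by replicate 1.

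For several genes the siRNA difference itself depended on the replicate number. This was examined after seeing the data with limma on log2(FPKM + 1). Each group had a mean in replicate 1 and another in replicates 2 and 3. The spread thus comes from replicates 2 and 3 alone and may be too small for replicate 1. FPKM values were not rescaled, so the median shift of -0.20 over all genes in the replicate 1 SiREV1#1 pair enters these tests. Part of the SiREV1#1 changes below, and of their counts, may be that shift. The SiREV1#1 difference changed between replicate 1 and replicates 2 and 3 for 16 of 32 genes, where 37.2% of all genes did, and the SiREV1#2 difference for 11 of 32, where 13.8% of all genes did. HMGCS1 (NCBI Gene 3157, chr5:43287470-43313412) had FPKM of 73.4, 68.0 and 72.2 in replicate 1 of Scramble, SiREV1#1 and SiREV1#2. In replicate 2 it had 68.9, 25.2 and 124.1 in the same order, and in replicate 3 it had 70.9, 26.7 and 121.9. The gene was thus at a like level in the 3 groups in replicate 1, and lower after SiREV1#1 and higher after SiREV1#2 in both other replicates. The SiREV1#1 difference was -0.11 in replicate 1 and -1.40 in replicates 2 and 3 on the log2(FPKM + 1) scale, and the SiREV1#2 difference was -0.03 and 0.81.

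MVD, a later enzyme of the route, had SiREV1#2 differences of -0.42 in replicate 1 and -1.54 in replicates 2 and 3. SCD had SiREV1#2 differences of -0.16 and -1.18, while its SiREV1#1 differences were nearly equal, at -0.58 and -0.55. ACAT2 had SiREV1#1 differences of -0.68 in replicate 1 and -1.63 in replicates 2 and 3, and INSIG1 -1.23 and -0.35. MSMO1 had SiREV1#1 differences of 0.40 and 1.17, so its direction was kept while its size changed. ACLY had SiREV1#1 differences of -0.30 in replicate 1 and 0.46 in replicates 2 and 3, the first to be read, like the other SiREV1#1 values of replicate 1 here, against the shift of -0.20 over all genes in that pair. SREBF2 kept its direction, with SiREV1#1 differences of 0.51 and 0.38 and SiREV1#2 differences of -0.29 and -0.39.

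Other genes of the same pathways were described from lists drawn up beside the 32, to be read for replicate 1 against the 28.5% of all genes that were higher and 28.3% that were lower. Of 11 further sterol and isoprenoid genes tested (12 listed), 5 were higher and 3 lower in replicate 1 (median log2 0.37), and ERG28, a scaffold of the sterol demethylation complex, rose by 1.23 (SE 0.13, adjusted p = 0.00017, edgeR). GGPS1, which makes geranylgeranyl diphosphate, was 2.11-fold lower (SE of log2 0.12, adjusted p = 0.00018, edgeR). Among 18 genes of sterol sensing, uptake, transport and efflux, 5 were higher and 5 lower (median 0.12), with TMEM97 2.94-fold higher and the lipoprotein receptor gene VLDLR 3.29-fold and the lysosomal sterol exporter gene NPC1 2.77-fold lower. Of 27 genes of fatty acid supply, elongation and use, 16 were higher and 2 lower (median 0.63), among them ACSL5, an acyl-CoA synthetase, 8.80-fold higher, ACACB, the mitochondrial carboxylase, 3.67-fold higher, and the elongase gene ELOVL7 3.95-fold lower. Of 16 fatty acid oxidation genes, 8 were higher and 2 lower (median 0.31), with PPARA, the nuclear receptor of fatty acid oxidation, 3.12-fold higher, and HADHA (1.71-fold) and SLC25A20 (1.79-fold) also higher.

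For SiREV1#1 against Scramble, where 12.3% of all genes passed, ERG28 alone of the 11 further sterol genes did, at log2 1.07 (SE 0.15, adjusted p = 0.0049, edgeR). Of the 18 transport genes 3 were higher and 1 lower. The sterol exporter gene ABCA1 was 2.68-fold higher (adjusted p = 0.0097, edgeR) and the oxysterol receptor gene NR1H3 1.60-fold higher (adjusted p = 0.026, edgeR), while GRAMD1B, a plasma membrane to endoplasmic reticulum sterol transporter, was 2.51-fold lower (adjusted p = 0.004, edgeR). Of the 27 fatty acid supply genes 5 were higher and 2 lower, with MLXIP 1.57-fold and FADS3 1.69-fold higher and HSD17B12, which acts in elongation, 1.82-fold lower. Of the 16 oxidation genes 3 were higher and 0 lower, namely PPARA (1.70-fold), CPT2 (1.46-fold) and HADHA (1.38-fold). For SiREV1#2, where 1.91% of all genes passed, the single gene to pass in any of these lists was NR1H2, the second oxysterol receptor gene, at log2 -1.49 (SE 0.17, adjusted p = 0.0092, edgeR). In the direct comparison NR1H2 was 2.76-fold and ERG28 2.28-fold higher after SiREV1#1 than after SiREV1#2, with ABCG1 3.14-fold higher, GRAMD1B 2.41-fold lower and HSD17B12 1.93-fold lower. In that comparison, where 17.6% of all genes passed, 1 sterol gene was higher, 5 transport genes were higher and 1 lower, 2 supply genes were higher and 2 lower, and 0 of 16 oxidation genes passed by edgeR (4 at an unadjusted p under 0.05).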

How the data were processed

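Poly(A) RNA of 9 A549 libraries was sequenced on the BGISEQ-500 platform. For each library the authors deposited expected counts per gene (estimated, not normalized; 42.6% are not whole). The authors also deposited FPKM values, fragments per kilobase and per unit of library size, rounded to 2 decimals. The submitters' processing notes name hg38 and StringTie 1.3.3b without a role; the aligner and counter are not given in the sources used here, so reads shared with near-identical copies (such as the pseudogenes of FDPS and HSD17B7) or with antisense genes may be assigned either way. SiREV1#2 replicates 2 and 3 hold the same counts at 100.0% of genes, which were used once.

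Counts were rounded and fitted with edgeR 4.0.16 (R 4.3.3; TMM, filterByExpr, 14205 genes, quasi-likelihood F test, Benjamini-Hochberg adjusted p under 0.05) in one fit of 3 groups with the replicate number as a block (3 residual degrees of freedom). Standard errors were derived from F as the size of the log2 fold change over its square root. The block was used because comparisons were to be made within same-numbered replicates, and the fit without it is an alternative. Deviations from group means correlated at 0.816 on average between same-numbered libraries (9 pairs, 0.734 to 0.929; 11429 genes with a mean FPKM over 1) and at -0.281 between other numbers (18 pairs), but at 0.804 between replicates 2 and 3 of different groups (6 pairs), so the check shows only that replicate 1 stands apart. Every same-numbered pair was over 0.1, but no label says that a number marks a shared batch. FPKM ratios use a pseudocount of 0.1. Alternatives were no block, 1 term for replicate 1, replicates 2 and 3 only, DESeq2 1.42.0, limma 3.58.1 on log2(FPKM + 1) or + 0.1, other scalings, other filters and leaving out each library. The scripts were tested on simulated data.

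The 32 genes, the other lists and the tests were chosen with earlier results of these data known. Full statistics are given for up to 10 members that passed, taken by smallest p, or the 5 with the smallest p where fewer passed, and up to 3 such genes are named per other list, except 1 that is not reported here. Gene positions and promoter windows are those of RefSeq on GRCh38.p14, while the deposited files carry no coordinates.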

Additional observations from a re-analysis of the deposited data

Results flagged for a closer look

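An siRNA difference that changed by more than 1 on the log2(FPKM + 1) scale between replicate 1 and replicates 2 and 3 and passed the test of that change was found for 3 genes (limma, adjusted over 14205 genes, chosen after seeing the data). For HMGCS1 the SiREV1#1 difference was 1.29 higher in replicate 1 (SE 0.08, adjusted p = 5.9e-05, limma). For MVD the SiREV1#2 difference was 1.12 higher in replicate 1 (SE 0.13, adjusted p = 0.0028, limma), and for SCD 1.02 higher (SE 0.08, adjusted p = 0.00043, limma). In all 3 the siRNA value lay closer to Scramble in replicate 1. With 1 library per group in replicate 1, the error rests on replicates 2 and 3.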

How the results depend on the processing

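With the replicate block, 9, 0 and 10 of the 32 genes passed for SiREV1#1, SiREV1#2 and SiREV1#1 against SiREV1#2, and with no replicate block 0, 0 and 0 (all genes: 1744, 271 and 2503 with it, 42, 0 and 96 without it; limma on FPKM without the block 0, 0 and 1). The siRNA calls by edgeR thus rest on a replicate term in the fit, which need not pair replicates 2 and 3. With 1 term for replicate 1 in place of the block, 12 passed for SiREV1#1 (8 higher, 4 lower). Replicates 2 and 3 only, by limma, gave 22, 19 and 27 (all genes 6638 for SiREV1#1 and 6456 for SiREV1#2), and the cause of this rise was not tested. For SiREV1#1 against SiREV1#2 no count over all genes was made in that fit, so the 27 is not a result about these 32 genes in particular. DESeq2 gave 1 for SiREV1#2, and limma on FPKM with the block 3 for SiREV1#2 and 16 for SiREV1#1 against SiREV1#2, with either pseudocount. Leaving out each library gave 0 to 14 for SiREV1#1, 0 to 3 for SiREV1#2, 0 to 14 for SiREV1#1 against SiREV1#2 and 22 to 26 for replicate 1. For SiREV1#1 the count was 0 without Scramble replicate 2, Scramble replicate 3 or SiREV1#1 replicate 3 (12, 10 and 10 at an unadjusted p under 0.05, edgeR), 1 without Scramble replicate 1, 4 without SiREV1#1 replicate 2 and 14 without SiREV1#1 replicate 1, the library of lowest depth. For SiREV1#1 against SiREV1#2 it was 0 without SiREV1#2 replicate 2 (11 unadjusted), 6 without Scramble replicate 1, 4 without Scramble replicate 2, Scramble replicate 3 or SiREV1#1 replicate 3, and 3 without SiREV1#1 replicate 2. For SiREV1#2 it was 3 without SiREV1#1 replicate 1 and 2 without SiREV1#2 replicate 1. SiREV1#2 replicate 3, whose counts repeat replicate 2, could not be left out. Fold changes that passed with the block never changed sign, and 44 of 128 fold changes, all of them not passing, did so in at least 1 alternative (107 values). Of those values 1 passed: FADS1 between the siRNAs was -0.13 (adjusted p = 0.64, edgeR) and 0.15 with replicates 2 and 3 only (adjusted p = 0.011, limma). The 26 genes higher in replicate 1 were 24 to 27 under the other settings. Where no count over all genes is given beside a setting, none was made. The count of the 32 genes then cannot be read against a share of all genes. The siRNA comparisons rest on 3 residual degrees of freedom.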
